A study of Rattus norvegicus with 5 samples.

Results

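The genes described here are 7 keratins (Krt5, Krt7, Krt8, Krt14, Krt17, Krt18 and Krt19), vimentin (Vim), E-cadherin (Cdh1) and Epcam, 10 genes of the 15069 that could be named on the array. They were chosen by name as genes that separate epithelial from mesenchymal cells, each is read by 1 probe, and all 10 were found. The arrays measured BRL-3A cells, a line from the liver of a Buffalo rat that the labels call normal hepatocytes, with 1 array for each of 5 groups: a lentivirus for overexpression of Tmub1, a lentivirus for its knockdown, the negative control of the overexpression virus, the negative control of the knockdown virus, and normal cells. Tmub1 encodes a membrane protein with a ubiquitin-like domain, and the series asks what its level does to gene expression in liver cells. Cells were harvested 48 h after transduction, and 1 µg of RNA from each group was labelled with Cy3. The labels give neither the promoter of the transgene, nor the sequence of the knockdown agent, nor what the control viruses carry.

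Keratins are the intermediate filament proteins of epithelia, and each filament is built from pairs of a type I chain (Krt14, Krt17, Krt18, Krt19) with a type II chain (Krt5, Krt7, Krt8). Krt8 with Krt18 is the pair of simple epithelia and the keratin pair of adult hepatocytes, Krt7 and Krt19 mark bile duct cells in liver, Krt5 with Krt14 is the pair of the basal layer of stratified epithelia, and Krt17 is known from skin appendages and injured epidermis. E-cadherin holds epithelial cells together at adherens junctions, Epcam is an adhesion protein of the epithelial surface, and vimentin is the type III filament protein of mesenchymal cells, also present in many cell lines in culture.

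Values are log2 of the processed signal minus the 75th percentile of the array, so that 0 is the level of a bright probe of the same array. The scanner software calls each spot well above background or not, and the 75th percentile lay at a signal between 527 and 1385 units on the 5 arrays. Between 66.8% and 86.5% of probes were well above background, lowest in the overexpression negative control and highest in normal cells. A gene counts as higher or lower when the brighter array is well above background and the difference is at least 2.5-fold, the fold in the series' design text. Where the dimmer array is below background and its value was raised to the lowest value well above background there (its floor), the fold is a lower bound and is written "at least". A value below background that already lay above this floor was used as read. With 1 array per group no difference has a replicate check and no p-value is given, so counts are set beside the share of all genes past the same fold and beside the 2 negative controls. Intervals given with a difference are 95% intervals from the scanner software's spot error and cover the reading of spots alone. The normal array was scanned on another day than the 4 transduced arrays, so wherever normal cells are the reference, scan day and group cannot be told apart. Tmub1 itself stood at -1.38 in knockdown cells, against 0.46 in the knockdown negative control, which is 3.60-fold lower. It stood at 0.48 in overexpression cells, against 0.44 in the overexpression negative control, so a higher Tmub1 level was not seen on the array labelled overexpression; whether its probe reads the RNA of the transgene is not known. Overexpression cells are therefore the cells so labelled, and each direction given for them rests on that label.

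In knockdown cells, 6 of the 8 genes that could be read were higher than in the knockdown negative control (Krt8, Krt7, Krt14, Krt17, Cdh1 and Vim; 8.98% of all genes were), 1 was lower (Krt19; 9.88% of all genes), and Krt5 differed by -0.06. Against the negative control of the other virus, 4 of 8 read (Krt8, Krt7, Cdh1 and Vim) were higher and Krt19 lower again, where 13.9% of all genes were higher and 17.7% lower; Krt14 and Krt17 did not reach the threshold. In overexpression cells, 1 of 6 genes read, Krt14, was past the threshold against its own negative control, and it was lower, as 1.09% of all genes were. Krt14 and Krt17 were brightest in normal cells. In bulk RNA such as this, fewer cells of a type and less RNA per cell cannot be told apart.

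**Figure D1:**
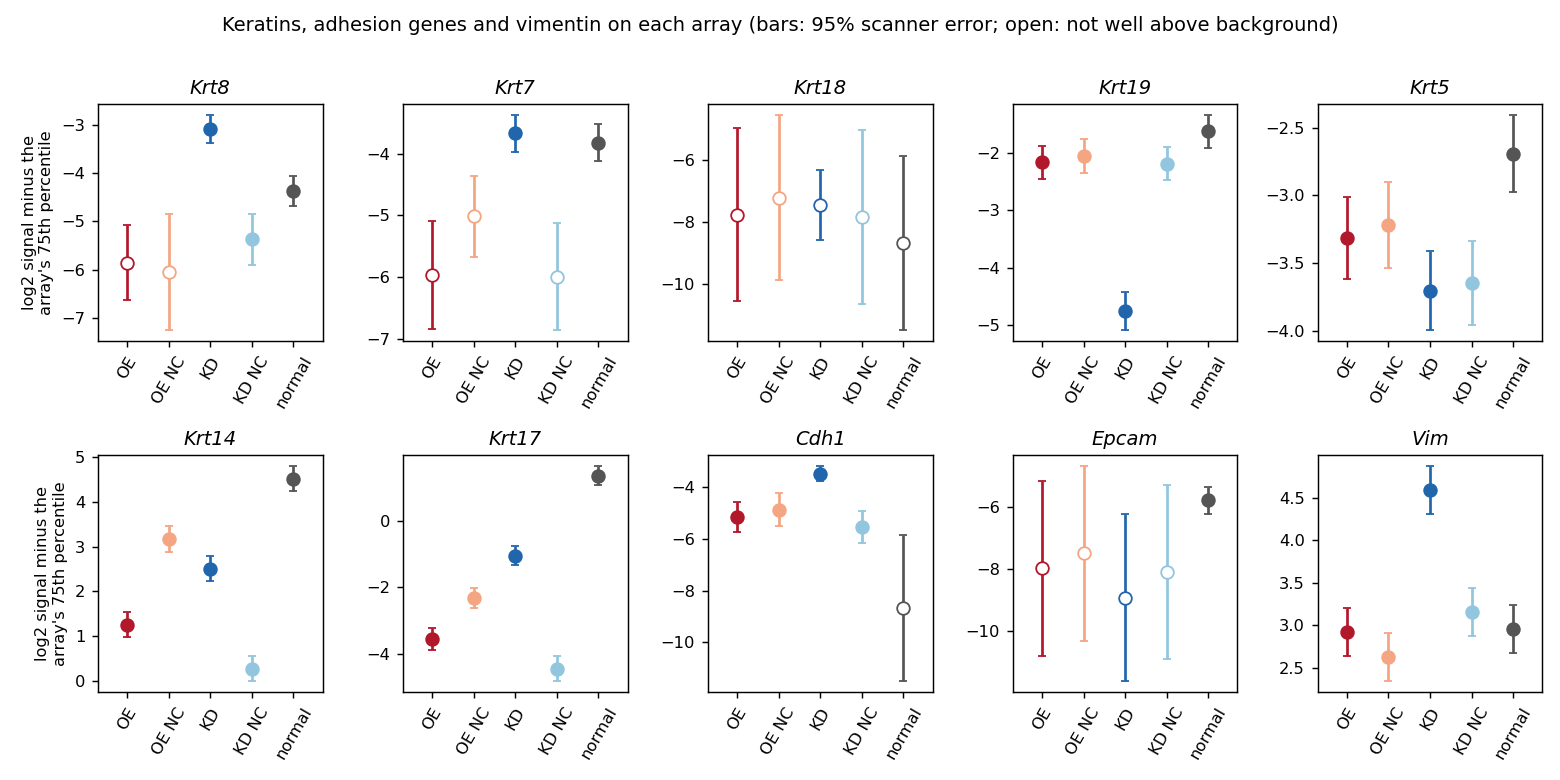
Level of each gene on each of the 5 arrays (vertical axis, log2 signal minus the 75th percentile of the array; horizontal axis, OE for overexpression, KD for knockdown, their negative controls and normal cells). Bars are 95% scanner error and open points are not well above background; Krt18 is open on all 5 arrays, Krt14 and Krt17 are highest in normal cells, and Vim is highest in knockdown cells.

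Krt8 (NCBI gene 25626), the type II chain of simple epithelia, was read by a probe printed 10 times on each array. Its level was -5.86 in overexpression cells, -3.08 in knockdown cells, -6.05 in the overexpression negative control, -5.37 in the knockdown negative control and -4.36 in normal cells. It was brightest in knockdown cells, next in normal cells, and not well above background in overexpression cells or the overexpression negative control. The 10 spots of the knockdown array ranged from -3.15 to -3.0, against -5.82 to -5.16 over the 9 spots kept on the knockdown negative control array. The 7 spots kept on the normal array ranged from -4.47 to -4.27, so neither of those arrays overlapped the knockdown array spot by spot. Spots of 1 array share its RNA and are no replicates of a condition. Krt8 was 4.88-fold higher in knockdown cells than in the knockdown negative control (log2 difference 2.29, interval 1.68 to 2.89) and at least 4.77-fold higher than in the overexpression negative control. Against normal cells the difference was 1.28 on the log2 scale, or 2.43-fold, short of the threshold; it was 1.85 with quantile normalization and 2.10 with cyclic loess, past it, and 0.12 with normexp.

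Krt18 (NCBI gene 294853), the type I partner of Krt8, was not well above background on any of the 5 arrays. Its levels were -7.76 in overexpression cells, -7.43 in knockdown cells, -7.20 in the overexpression negative control, -7.84 in the knockdown negative control and -8.69 in normal cells, behind which lie processed signals of 2.97 to 8.02 units. No fold is therefore given, and this probe gives no reading of Krt18 in any group. Krt8 and Krt18 are close neighbours on chromosome 7 of the rat. The 250 bases before the start of each are shown for this pair, of which 1 gene was read and the other was not, and for Vim, which was higher in knockdown cells against all 3 references. Capitals mark the letters CACCTG, or CAGGTG on the other strand, the form of the E-box that Snail and Zeb factors are known to bind. The sequences and positions are from RefSeq on build GRCr8, 5′ to 3′ on the strand of the gene, at chr7:135010340-135010589 (minus strand) for Krt8, chr7:135035918-135036167 (plus strand) for Krt18 and chr17:81577011-81577260 (plus strand) for Vim.
Krt8: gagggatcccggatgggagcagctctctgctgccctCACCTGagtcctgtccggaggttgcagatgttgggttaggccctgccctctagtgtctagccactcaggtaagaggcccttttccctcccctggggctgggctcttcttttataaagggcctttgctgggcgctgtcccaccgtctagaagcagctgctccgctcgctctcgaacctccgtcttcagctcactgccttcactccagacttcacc
Krt18: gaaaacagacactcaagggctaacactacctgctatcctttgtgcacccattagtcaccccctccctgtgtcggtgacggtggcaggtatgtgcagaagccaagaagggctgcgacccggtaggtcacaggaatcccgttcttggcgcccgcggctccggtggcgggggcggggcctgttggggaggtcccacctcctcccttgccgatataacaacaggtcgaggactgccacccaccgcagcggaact
Vim: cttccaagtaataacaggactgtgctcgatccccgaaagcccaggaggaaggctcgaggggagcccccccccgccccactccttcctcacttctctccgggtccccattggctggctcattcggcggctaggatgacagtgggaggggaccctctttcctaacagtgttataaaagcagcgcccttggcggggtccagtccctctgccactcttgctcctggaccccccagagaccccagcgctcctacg
The Krt8 window holds the letters once, beginning 214 bases before the start, and the Krt18 and Vim windows do not hold them. Of the 10 genes, 5 were matched in the RefSeq table used; of the other 2 matched, the Krt5 window holds the letters 129 bases and the Epcam window 165 bases before the start. Among 27457 rat promoters of the same length, 4296 (15.6%) hold them. A match of letters is a description of the sequence, and binding was not measured.

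**Figure D2:**
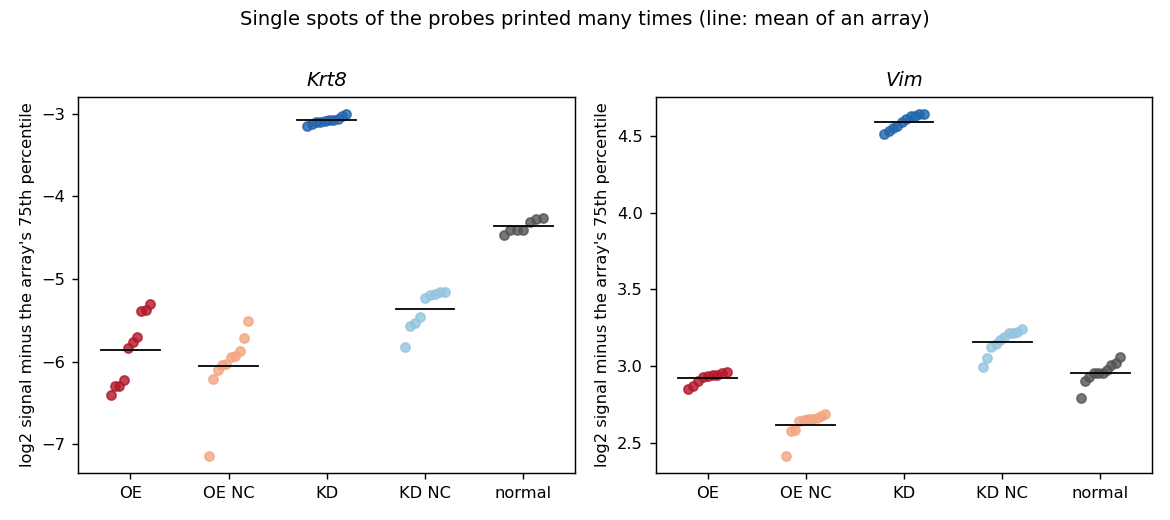
Single spots of the Krt8 and Vim probes, each printed 10 times per array (vertical axis, log2 signal minus the 75th percentile of the array; horizontal axis, the 5 arrays; line, mean of an array). For both genes the knockdown spots lie apart from those of every other array: -3.15 to -3.0 for Krt8 and 4.51 to 4.64 for Vim.

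Krt7 (NCBI gene 300242), a type II keratin of ducts and glands, stood at -5.96 in overexpression cells, -3.67 in knockdown cells, -5.01 in the overexpression negative control, -5.99 in the knockdown negative control and -3.82 in normal cells. Only the knockdown and normal arrays were well above background, and they were close to each other, with a log2 difference of 0.15 (interval -0.27 to 0.57). In knockdown cells Krt7 was at least 4.71-fold higher than in the knockdown negative control. It was 2.53-fold higher than in the overexpression negative control (log2 difference 1.34, interval 0.62 to 2.06), just past the threshold. That control was not well above background, but its value lay above its floor and was used as read, so this fold is no lower bound. In overexpression cells it was at least 3.97-fold lower than in normal cells, and in the knockdown negative control at least 4.25-fold lower. The overexpression difference, -1.99 on the log2 scale, became -1.31 with quantile normalization, -1.07 with cyclic loess, -0.54 with normexp and -1.31 in the authors' deposited table, each short of the threshold. The value for the knockdown negative control lost it with cyclic loess (-1.08) and normexp (-0.64).

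Krt19 (NCBI gene 360626), the small type I keratin of bile duct and other simple epithelia, went the other way. Its level was -2.17 in overexpression cells, -4.76 in knockdown cells, -2.06 in the overexpression negative control, -2.19 in the knockdown negative control and -1.63 in normal cells, well above background on all 5 arrays. The knockdown array was low and the other 4 lay within 0.56 of each other on the log2 scale. Krt19 was 5.91-fold lower in knockdown cells than in the knockdown negative control (log2 difference -2.56, interval -3.0 to -2.12). Set against the overexpression negative control the fold was 6.48, and against normal cells 8.72, both lower in knockdown cells. Overexpression cells differed from their own negative control by -0.11 (interval -0.52 to 0.31).

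Krt5 (NCBI gene 369017), the basal type II keratin, varied least among the keratins read on all 5 arrays. It stood at -3.32 in overexpression cells, -3.71 in knockdown cells, -3.22 in the overexpression negative control, -3.65 in the knockdown negative control and -2.69 in normal cells, a range of 2.02-fold. No pair of arrays reached the threshold. The difference of knockdown cells from the knockdown negative control was -0.06 (interval -0.48 to 0.37), and that of overexpression cells from their negative control was -0.10 (interval -0.54 to 0.34).

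Krt14 (NCBI gene 287701), the basal type I partner of Krt5, moved over 19.1-fold across the arrays. Its level was 1.26 in overexpression cells, 2.51 in knockdown cells, 3.17 in the overexpression negative control, 0.27 in the knockdown negative control and 4.52 in normal cells, from processed signals between 821 and 29633 units. Normal cells were highest and the knockdown negative control lowest, with both Tmub1 viruses between the 2 negative controls. Krt14 was 3.77-fold lower in overexpression cells than in their negative control (log2 difference -1.91, interval -2.31 to -1.51) and 4.73-fold higher in knockdown cells than in theirs (2.24, interval 1.84 to 2.64). The 2 negative controls themselves differed more: Krt14 was 7.48-fold lower in the knockdown negative control than in the overexpression negative control. With the controls exchanged the direction of both turned, to 0.99 for overexpression cells against the knockdown negative control and -0.66 for knockdown cells against the overexpression negative control, neither past the threshold.

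Krt17 (NCBI gene 287702) covered the widest range, 55.9-fold. It stood at -3.56 in overexpression cells, -1.06 in knockdown cells, -2.34 in the overexpression negative control, -4.45 in the knockdown negative control and 1.35 in normal cells. As for Krt14, normal cells were highest and the knockdown negative control lowest, but here the knockdown array lay above both negative controls. Krt17 was 10.5-fold higher in knockdown cells than in the knockdown negative control (log2 difference 3.39, interval 2.92 to 3.87) and 2.43-fold higher than in the overexpression negative control, just short of the threshold. It was 4.32-fold lower in the knockdown negative control than in the overexpression negative control. In overexpression cells it differed from their negative control by -1.22 (interval -1.66 to -0.78), also short of the threshold, and by 0.89 from the knockdown negative control. Krt14, Krt17 and Krt16 are close relatives in sequence and lie in 1 cluster of type I genes in the RefSeq annotation. Whether their probes tell them apart was not tested, and the files used here give no probe sequences. Krt16 was well above background only in normal cells, at -6.26, while the Krt14 and Krt17 probes were above background on all arrays.

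Cdh1 (NCBI gene 83502), the gene of E-cadherin, was dim. Its level was -5.16 in overexpression cells, -3.50 in knockdown cells, -4.88 in the overexpression negative control, -5.57 in the knockdown negative control and -8.68 in normal cells, where it was not well above background. The knockdown array was the highest and the normal array the lowest. Cdh1 was 4.20-fold higher in knockdown cells than in the knockdown negative control (log2 difference 2.07, interval 1.39 to 2.75) and 2.60-fold higher than in the overexpression negative control. Overexpression cells differed from their negative control by -0.28 (interval -1.13 to 0.57), less than the scanner error. Against normal cells Cdh1 was at least 2.78-fold higher in overexpression cells, at least 8.77-fold in knockdown cells and at least 3.37-fold in the overexpression negative control. In the knockdown negative control the bound was 2.09-fold, under the threshold, but past it with quantile normalization, cyclic loess and the authors' deposited table. The scanner intervals of these log2 differences were wide, -1.40 to 4.35 in overexpression cells, 0.30 to 5.97 in knockdown cells and -1.13 to 4.64 in the overexpression negative control, so that 2 of the 3 span 0. The overexpression difference lost the threshold with the 75th percentile over bright probes (1.28), and all 3 lost it with normexp (0.18, 0.26 and 0.49 in the same order).

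Epcam (NCBI gene 171577) was well above background on the normal array alone, at -5.77 with a processed signal of 23.6 units. It stood at -7.97 in overexpression cells, -8.91 in knockdown cells, -7.49 in the overexpression negative control and -8.09 in the knockdown negative control, all below background. Epcam could not be read between any pair of transduced arrays. Against normal cells no bound reached 2.5-fold, the largest being a log2 difference of -0.92 in knockdown cells.

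Vim (NCBI gene 81818), whose probe is also printed 10 times, had signals of 3240 to 33359 units. Its level was 2.92 in overexpression cells, 4.59 in knockdown cells, 2.62 in the overexpression negative control, 3.16 in the knockdown negative control and 2.96 in normal cells. The knockdown array stood apart: its spots ranged from 4.51 to 4.64, against a highest spot of 3.24 on the knockdown negative control array, the highest of the others. Vim was 2.70-fold higher in knockdown cells than in the knockdown negative control (log2 difference 1.43, interval 1.03 to 1.83), 3.92-fold higher than in the overexpression negative control and 3.10-fold higher than in normal cells. In overexpression cells the difference from their negative control was 0.30 (interval -0.10 to 0.70), and from normal cells -0.03.

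**Figure D3:**
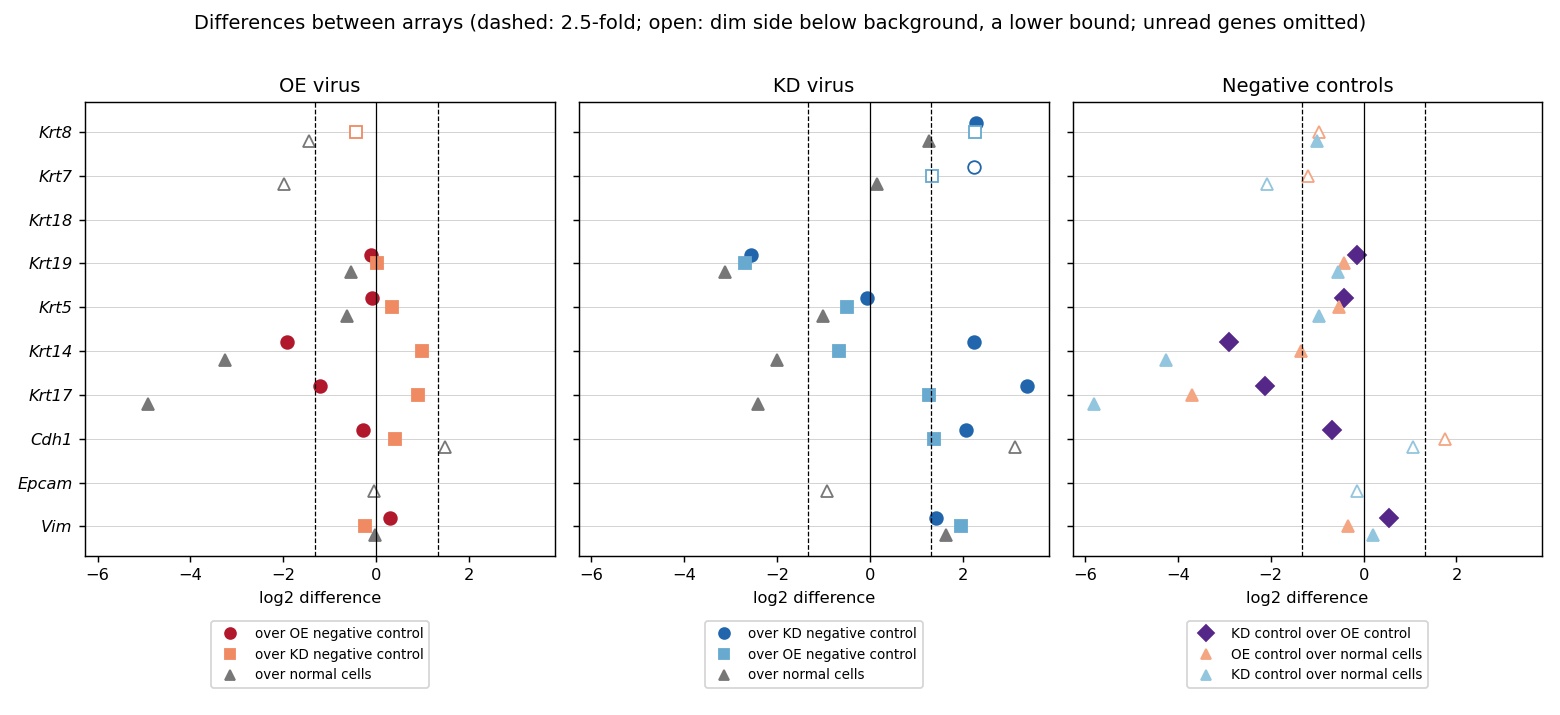
Log2 differences of the 10 genes (horizontal axis) for the overexpression virus, the knockdown virus and the negative controls, each over the references named in the legends. Dashed lines mark 2.5-fold, open symbols mark a dimmer array below background and genes that could not be read have no symbol. An open symbol is a lower bound only where the dim value was raised to its floor, which was not so for Krt7 in the overexpression negative control. Krt19 is left of the dashed line and Vim right of it in all 3 knockdown comparisons. The Krt14 symbols fall on both sides of 0 for both viruses.

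Read as counts, 7 of the 8 genes that could be read were past 2.5-fold in knockdown cells against the knockdown negative control, where 18.9% of all genes were. Their median log2 difference was 2.15, against -0.19 over all genes. The 1 gene of 6 read in overexpression cells against their negative control stands beside 2.72% of all genes, with medians of -0.19 and -0.03. Between the 2 negative controls, 2 of 6 genes read, Krt14 and Krt17, were lower in the knockdown negative control, where 3.92% of all genes were lower and 8.71% past the threshold in either direction. In the exchanged comparisons, 5 of 8 genes were past it in knockdown cells against the overexpression negative control (31.6% of all genes) and 0 of 7 in overexpression cells against the knockdown negative control (4.05% of all genes). The comparisons that use the same negative control or the normal array share it and are not independent of each other. The knockdown array was also brighter than its negative control, with 80.8% against 73.0% of probes well above background and 8 against 7 of the 10 genes; the part of this in the higher values was not tested. The scaling sets the split over all genes: of the genes past the threshold in knockdown cells against the knockdown negative control, 47.6% were higher, and this share ranged from 36.4% with another background correction to 71.4% with the 75th percentile taken over bright probes only.

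Against normal cells, the transduced arrays were lower in Krt14 and Krt17 throughout. Krt14 was 9.60-fold lower in overexpression cells, 4.02-fold lower in knockdown cells, 2.55-fold lower in the overexpression negative control and 19.1-fold lower in the knockdown negative control. Krt17 was 30.1-fold, 5.33-fold, 12.9-fold and 55.9-fold lower in the same order of groups. In all, 5 of 9 genes read were past the threshold in overexpression cells (17.3% of all genes), 5 of 9 in knockdown cells (30.5%), 3 of 8 in the overexpression negative control (18.5%) and 3 of 9 in the knockdown negative control (17.5%). Krt8 was at least 2.73-fold lower in overexpression cells than in normal cells in this scaling, but its log2 difference was -0.67 with quantile normalization, -0.51 with cyclic loess, -0.39 with normexp and -0.22 in the authors' deposited table, none past the threshold.

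The other keratins on the array number 36, of which 31 were well above background on at least 1 array and 12 on all 5. In knockdown cells 24 of the 36 were above background, against 14 in the knockdown negative control. In knockdown cells against the knockdown negative control, 19 could be read and 1 was past the threshold: Krt84, a hair and tongue keratin, was 3.43-fold lower. Their median difference of -0.19 matched that of all genes to 2 decimals, and none of the 19 was higher, where 8.98% of all genes were. In overexpression cells against their negative control, Krt6c was 3.15-fold higher and Krt15, a basal type I keratin, 2.80-fold lower, of 18 read. Of all genes, 2.72% were past the threshold there. With normexp the Krt6c difference was 1.03 on the log2 scale, under the threshold. Krt15 stood at -0.49 in overexpression cells, -2.73 in knockdown cells, 1.00 in the overexpression negative control, -2.46 in the knockdown negative control and 1.66 in normal cells. Normal cells were again the highest. Against the knockdown negative control, Krt15 in overexpression cells was higher by 1.97 on the log2 scale, so its direction too turned with the control used. Against normal cells, 14 of 31 other keratins read were past the threshold in knockdown cells, 13 of them lower, and 10 of 27, all lower, in the knockdown negative control, beside 30.5% and 17.5% of all genes past it in either direction. Under the other scalings the lower counts were 7 to 10 in knockdown cells and 2 to 13 in the knockdown negative control. Their median in overexpression cells against normal cells was -0.62 in the scaling used here and 0.12 with cyclic loess, so no direction is given for this set against normal cells.

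Lists of further genes of the same biology were set beside these. Of the junction and polarity genes of epithelia, 4 of 20 read were higher in knockdown cells than in the knockdown negative control and 0 lower, among them Pard6b, a polarity protein (2.91-fold), F11r, a tight junction adhesion molecule (2.74-fold), and Ctnna1, the catenin that ties cadherins to actin (2.69-fold). The median of the list was 0.28, against -0.19 over all genes, of which 8.98% were higher. Against normal cells 4 of 21 were higher and 5 lower, beside 30.5% of all genes past the threshold in either direction. Pard6b and Ctnna1 were also past the threshold against the overexpression negative control, by 2.41 and 2.02 on the log2 scale, while F11r was at 0.89. No gene of the lists of stratified epithelium (6 read) or of simple epithelium and bile duct (10 read) was past the threshold in either direction. Among regulators of epithelial identity and surface proteases, 1 of 18 was past it, St14, a membrane serine protease, which was 3.07-fold lower. St14 was not past the threshold against the overexpression negative control (-1.09 on the log2 scale) or normal cells (-0.95).

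The regulators of the epithelial to mesenchymal transition were split. Of 16 read, 5 were higher and 2 lower in knockdown cells than in the knockdown negative control, beside 8.98% of all genes higher and 9.88% lower. The list median was -0.25 here, 0.73 against the overexpression negative control (6 higher, 3 lower) and 0.64 against normal cells (6 higher, 3 lower of 17), so its sign turned with the reference. Of all genes, 13.9% were higher and 17.7% lower against the overexpression negative control, and 30.5% were past the threshold against normal cells. Snai2, a repressor of Cdh1, was 4.62-fold higher, the transcription factor gene Ets1 at least 6.28-fold higher (0.60 on the log2 scale with normexp, under the threshold), the TGF-beta receptor gene Tgfbr2 3.68-fold and Tcf12 3.29-fold higher. The fifth was Zeb2, a repressor of Cdh1 (log2 difference 1.33), named after its value was seen. Snai1, also a repressor of Cdh1, was 3.95-fold lower and Snai3 2.83-fold lower. Snai3 was not past the threshold against the overexpression negative control (-0.79 on the log2 scale) or normal cells (-1.03). Snai1 stood at 1.56 in overexpression cells, -0.78 in knockdown cells, 2.50 in the overexpression negative control, 1.21 in the knockdown negative control and 2.41 in normal cells. Snai2 stood at -2.71, -0.90, -2.53, -3.11 and -2.35 in the same order of groups. The knockdown array was thus the lowest of the 5 in Snai1 and the highest in Snai2, and both were past the threshold against all 3 references. With normexp, Snai2 fell under it against the overexpression negative control (1.045 on the log2 scale) and normal cells (1.009).

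Genes of mesenchymal, stellate and fibroblast cells gave 3 higher and 2 lower of 27 read, with a median of -0.32, beside 8.98% of all genes higher and 9.88% lower. The counts against the overexpression negative control were 1 higher and 3 lower of 27, beside 13.9% of all genes higher and 17.7% lower. Tagln, which binds actin in smooth muscle and myofibroblasts, was 7.16-fold higher, the fibrillin gene Fbn1 4.35-fold and the collagen gene Col5a1 3.57-fold higher in knockdown cells. Pdgfrb, a growth factor receptor of stellate cells, was 4.13-fold lower and the cadherin gene Cdh11 2.55-fold lower. Against the overexpression negative control, Col5a1 (1.04), Pdgfrb (-1.23) and Cdh11 (-1.24) were not past the threshold. Fbn1 differed by -0.24 from that control, and it was 3.31-fold lower in overexpression cells than in the same control. Of the other filament genes and their partners, 2 of 15 were higher (the lamin gene Lmnb1, 3.29-fold, and the keratin-binding gene Tchp, 2.60-fold) and 3 lower: Ina (4.41-fold) and Nes (4.08-fold), which encode filament proteins known from neural cells, and the plakin gene Evpl (2.51-fold). Against the overexpression negative control Tchp (2.50), Ina (-1.97) and Nes (-1.51) were past the threshold again, and Lmnb1 (1.05) and Evpl (-0.85) were not. Against normal cells Nes (-1.89) and Evpl (-2.12) were lower, and Lmnb1 (0.75), Tchp (0.98) and Ina (-0.59) were not past it. With the overexpression virus, the lists of junctions (19 read), epithelial regulators (16), transition regulators (14), other filament genes (14) and simple epithelium (11) had 0 genes past the threshold against the negative control. The hepatocyte list had 1 higher of 14 read, Asgr1, a receptor subunit of the liver cell surface (at least 4.03-fold), and 1 lower, Afp (at least 2.99-fold). Asgr1 was also higher than in the knockdown negative control, by at least 6.01-fold, and than in normal cells, by 5.03-fold. With normexp the log2 difference of Asgr1 was 0.52 from its own control, 0.91 from the knockdown negative control and 0.66 from normal cells, all under the threshold. Afp could not be read against the knockdown negative control. With normexp the log2 difference of Afp from its own control was -0.51, also under the threshold. The mesothelial list had 2 lower of 7 read, Podxl (2.93-fold) and Upk1b (2.67-fold), but against the knockdown negative control Podxl was higher, by 1.59 on the log2 scale, and Upk1b differed by -0.01. Of all genes, 1.09% were lower in overexpression cells than in their negative control and 2.72% past the threshold in either direction.

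**Figure D4:**
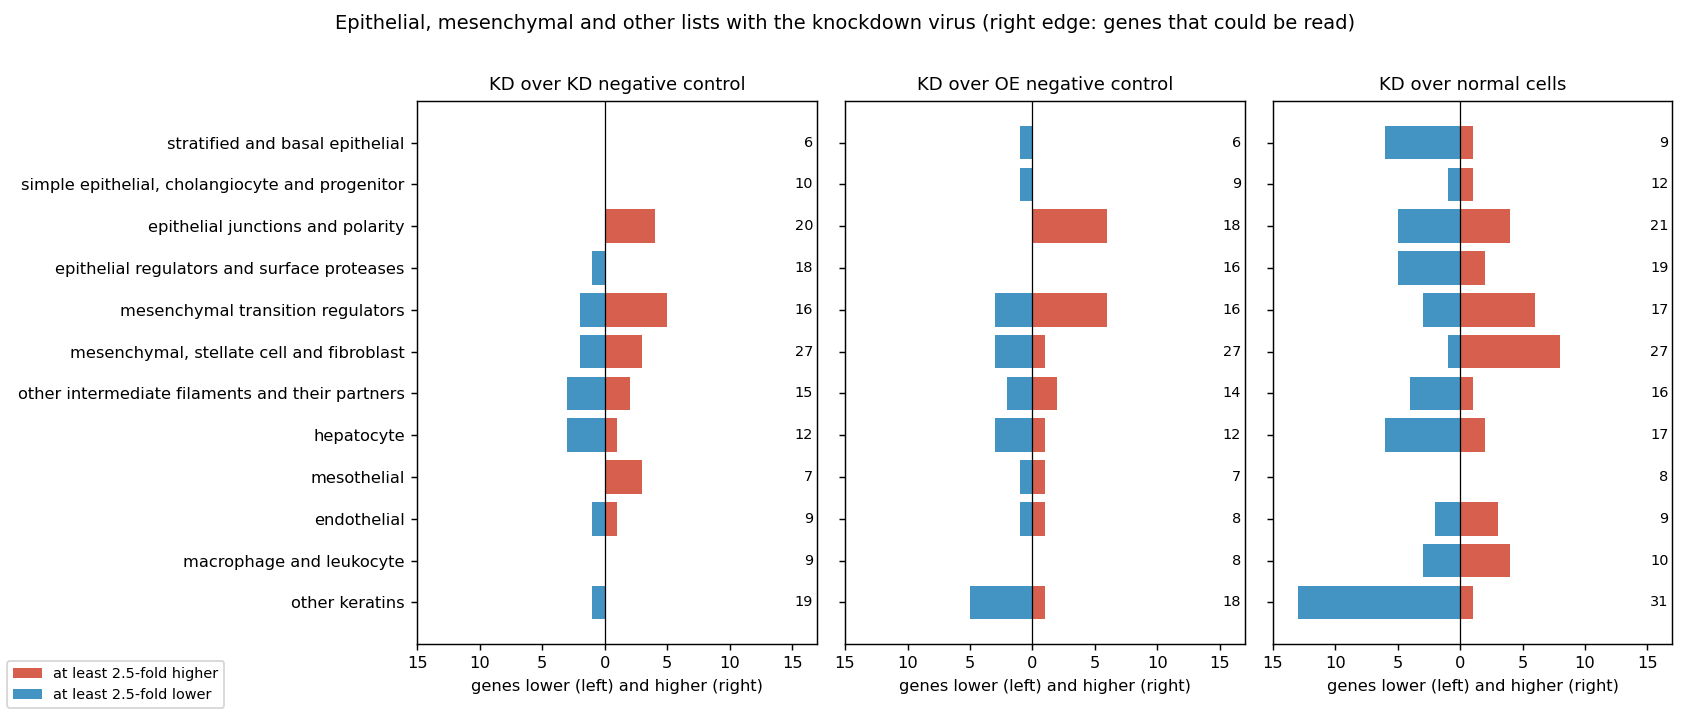
Number of genes of each list at least 2.5-fold lower (left of 0) and higher (right of 0) in knockdown cells than in the knockdown negative control, the overexpression negative control and normal cells, with the number of genes that could be read at the right edge. Junction genes are on the higher side with either negative control (4 and 6 genes, 0 lower) and on both sides against normal cells (4 higher, 5 lower), and transition regulators lie on both sides. Of all genes, 8.98% were higher than in the knockdown negative control and 13.9% higher than in the overexpression negative control.

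The labelled cell type was compared with markers. Of 20 hepatocyte genes on the array, 10 to 15 were well above background on each array and 7 on all 5. Alb, the albumin gene, was above background on 2 arrays and Afp on 3. Of the keratin pair of hepatocytes, Krt8 was above background on 3 arrays and Krt18 on none. Ahsg was above background on all 5 arrays, at 0.68 in overexpression cells and -2.15 in knockdown cells. It stood at 0.43 in the overexpression negative control, 0.47 in the knockdown negative control and 1.02 in normal cells. The summed level of the list was 4.32 in overexpression cells, 2.38 in knockdown cells, 4.67 in the overexpression negative control, 5.08 in the knockdown negative control and 3.73 in normal cells, in multiples of the 75th percentile. Of 12 hepatocyte genes read in knockdown cells against the knockdown negative control, 1 was higher (Cyp2e1, 3.07-fold) and 3 lower (Ahsg, 6.15-fold, Alb, at least 4.60-fold, and Pck1, 2.97-fold). Of all genes, 8.98% were higher and 9.88% lower in this comparison. Against the overexpression negative control Ahsg was lower by -2.58 and Cyp2e1 higher by 2.28 on the log2 scale, while Alb and Pck1 could not be read. Against normal cells Ahsg was lower by -3.17, Cyp2e1 (-0.56) and Pck1 (0.49) were not past the threshold, and Alb could not be read. Mesothelial genes belong to the lining cells of the body cavities, which carry both keratins and vimentin. Of 8 on the array, 7 were above background on each array (6 of them on all 5). Their summed levels were 69.6, 56.8, 113, 58.4 and 86.8 in the same order of groups. Of 28 mesenchymal, stellate and fibroblast genes, 25 to 27 were above background on each array, with higher sums of 574, 428, 852, 601 and 563. The lists differ in size, so their sums are no ranking of cell types. In knockdown cells 3 of 7 mesothelial genes read were higher than in the knockdown negative control (Rspo1, 8.05-fold, Upk1b, 4.25-fold, and Podxl, 2.57-fold) and 0 lower, beside the same shares of all genes. Against the overexpression negative control Rspo1 was higher by 2.22, Upk1b differed by 0.68 and Podxl was lower by -1.78 on the log2 scale. Of the endothelial list, 1 of 9 was higher (Tek, 3.27-fold) and 1 lower (Erg, at least 6.21-fold), and of 9 leukocyte genes none was past the threshold. The part of other cell types in the keratin and vimentin values was not tested.

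For the 4 genes above background on all arrays that spanned at least 2.5-fold, the genes with the most similar profile were sought among 10698 genes, by the root mean square difference of centred log2 values over the 5 arrays. With 5 arrays, close profiles arise among many genes, and the distances are a description. For Krt19 the nearest were Ahsg, the gene of the plasma protein fetuin-A (0.12), Sfswap (0.20) and Eddm3b (0.21). For Krt14 they were Plek2 (0.36), Or2ag16b (0.41) and Ptprq (0.51), and for Vim Eif3b (0.04), Faim (0.05) and Exoc1 (0.06). For Krt17 they were Smpd3 (0.64), Vom2r8 (0.78) and Krt14 (0.86); seen from Krt14, Krt17 ranked 70 among the 10698. Krt19 and Vim had a distance of 1.79, which follows from their opposite directions on the knockdown array and is no separate result. Krt17 was further from both, at 2.37 from Krt19 and 2.03 from Vim.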

How the data were processed

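Gene expression was measured with 1 one-colour Agilent array per group. Per the file headers, the deposited scanner files hold a processed signal, a background-subtracted intensity per spot, from Agilent Feature Extraction 11.0.1.1, where version 9.1 stands in the submitters' processing notes. The authors also deposited a table of log2 values, whose columns share their quartiles; the sources used here do not name the software that normalized it.

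From the processed signal, control spots and spots flagged by the software were left out (419 to 731 of 42877 spots per array; none was saturated), log2 values were averaged over spots of a probe, and the 75th percentile of the array was subtracted. Of 30367 probes, 30100 had a value on every array; 18005 of 30367 were named through the RefSeq table and 12362 stayed unnamed. Where a gene had several probes, the one with the highest mean was used. A value below background was raised to the lowest probe value well above background on its array, where that was higher. Genes not above background on the brighter side, or whose bound fell under 1-fold, were not read. The number of arrays limits the precision.

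Other scalings tried were cyclic loess and quantile normalization, the 75th percentile over the 19481 probes bright on every array, and normexp with offset 50 on median pixel signals (limma 3.58.1, R 4.3.3). Further alternatives were the log2 table the authors deposited, a filter on both arrays or none, averaging the probes of a gene, thresholds of 2-fold and 4-fold, and the other negative control. Python 3.11.15, numpy 2.4.6, pandas 2.3.3 and matplotlib 3.10.9 were used, and the scripts were tested on simulated data. Apart from Tmub1, the text names the 10 genes, up to 4 genes per list and direction past the threshold against the own negative control, and the 3 nearest profiles; Krt16 and Zeb2 were chosen after their values were seen, and 1 gene that the rule names is not reported here. The genes and lists were chosen with earlier results of these data known, so their counts are no independent evidence.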

Additional observations from a re-analysis of the deposited data

Results flagged for a closer look

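Krt14 moved in opposite directions with the 2 viruses, each against its own negative control. The log2 difference was -1.91 on the array labelled overexpression and 2.24 with the knockdown virus. The difference between the 2 effects was not tested, since each group is 1 array. Against the negative control of the other virus the values were 0.99 with the overexpression virus and -0.66 with the knockdown virus. Krt14 was lower by -2.90 on the log2 scale in the knockdown negative control than in the overexpression negative control.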

How the results depend on the processing

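With 1 array per group no array could be left out. No paired analysis was possible because each group holds replicate 1 alone and no test was made. The direction of Krt14 turned when each virus was set against the other negative control, to 0.99 for overexpression and -0.66 for knockdown; Krt17 with knockdown then stood at 1.28, short of the threshold. With knockdown against its negative control, normexp with an offset of 50 gave 4 genes in place of 7: Krt8 (0.55), Krt7 (0.25) and Cdh1 (0.23) were then below the threshold, and the offset is larger than their signals in the knockdown negative control, which were 10.7 to 16.5 units. The other scalings, filters, thresholds and the exchanged control left that count within 1.5 times of 7. With overexpression against its negative control the count of 1 became 2 at 2-fold, 0 at 4-fold and 0 against the other negative control. Between the negative controls, normexp gave 1 in place of 2. For overexpression against normal cells the count of 5 became 3 with quantile normalization, 3 with cyclic loess, 3 with the authors' table, and 2 with normexp, with both arrays above background and at 4-fold. For the overexpression negative control against normal cells the count of 3 became 1 with normexp, 6 with no background filter and 1 at 4-fold. For the knockdown negative control against normal cells the count of 3 became 5 with no background filter and 5 at 2-fold.

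Over all genes, normexp gave 1379 calls in place of 2320 for knockdown and 75 in place of 315 for overexpression, each against its negative control, and 385 in place of 1009 between the negative controls. Against normal cells normexp gave 776 in place of 2255 for overexpression and 2395 in place of 4164 for knockdown. Without a background filter overexpression against its negative control gave 746 and the negative controls 1558, and against the other negative control knockdown gave 3701 and overexpression 490. Thresholds of 2-fold and 4-fold gave 3981 and 680 for knockdown and 710 and 69 for overexpression. The median difference of all genes ranged with the scaling from -0.40 to 0.11 for knockdown against its negative control and from -0.55 to 0.03 against normal cells. Of the calls against normal cells, 43.1% were higher for overexpression (28.5% to 76% under the other scalings) and 35.9% for knockdown (31.7% to 65.5%), 45.4% for the overexpression negative control (24.6% to 83.7%) and 39.5% for the knockdown negative control (29.7% to 74.2%). Between the negative controls the share was 55% (39.5% to 66.7%). Of the listed genes named, Cdh11, F11r, Tchp, Zeb2, Evpl, Pck1 and Snai3 with knockdown and Krt15 and Upk1b with overexpression lost the threshold under at least 1 scaling other than normexp; none turned direction there. With normexp, 11 of the 33 calls of listed genes with knockdown against its negative control were lost, among them Ets1 (0.60), Tek (0.65), Cyp2e1 (0.81), Lmnb1 (1.19), Alb (-1.27) and Tcf12 (1.29). With overexpression against its negative control, normexp lost 4 of 7 such calls: Asgr1 (0.52), Afp (-0.51), Krt6c (1.03) and Upk1b (-1.16). Probes dim on most arrays (Krt18, Epcam, Krt7, Cdh1) limit what can be read.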

Other observations

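The following genes were picked after their values were seen. Some epithelial and adhesion genes stood higher on all 4 transduced arrays than on the normal array, opposite to Krt14 and Krt17. Other genes of their lists were lower. The rise over normal cells was not particular to epithelial genes. Of 27 mesenchymal, stellate and fibroblast genes read, 9 were higher and 1 lower in overexpression cells, and 8 and 1 in knockdown cells. In the overexpression negative control 9 of 27 were higher and 0 lower, and in the knockdown negative control 9 and 1. The junction list had 2 higher and 2 lower of 21 read in overexpression cells and 4 and 5 of 21 in knockdown cells. It had 1 and 4 of 20 in the overexpression negative control and 1 and 2 of 21 in the knockdown negative control. Cldn1, a tight junction claudin, was 28.8-fold higher in overexpression cells, 22.9-fold in knockdown cells, 39.3-fold in the overexpression negative control and 39.0-fold in the knockdown negative control than in normal cells, where its level was -5.43. Itgb4, the integrin chain of hemidesmosomes, was 10.6-fold, 14.4-fold, 16.4-fold and 18.3-fold higher in the same order of groups. In the stratified list it was the 1 gene higher in each group, with 3 lower of 8 read, 6 of 9, 1 of 8 and 3 of 8. The Krüppel-like factor gene Klf4 was 4.23-fold, 6.16-fold, 2.63-fold and 7.10-fold higher. The list of epithelial regulators had 2 higher in each group, with 2 lower of 18 read, 5 of 19, 2 of 18 and 2 of 18. Of all genes, 17.3%, 30.5%, 18.5% and 17.5% were past the threshold in either direction. Itgb4 belongs with Krt5 and Krt14 to the basal layer of stratified epithelia, yet Krt14 was lower on the same 4 arrays. Elf3, an epithelial transcription factor, was lower: 2.64-fold in overexpression cells, 4.93-fold in knockdown cells, 2.78-fold in the overexpression negative control and 2.40-fold, under the threshold, in the knockdown negative control. With quantile normalization the log2 difference of Elf3 was -1.04 in overexpression cells and -1.0 in their negative control, and both were under the threshold with cyclic loess, normexp and the authors' table too. The Klf4 value of the overexpression negative control fell under it in all 5 other scalings (1.12 to 1.27).

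Some markers of other cell types also differed. Pecam1, an endothelial gene, was not well above background in normal cells and at least 14.1-fold to 31.4-fold higher on the 4 transduced arrays, and Ptprc, a leukocyte gene, at least 7.73-fold to 12.5-fold higher. With normexp Pecam1 was under the threshold in overexpression cells (1.17), knockdown cells (1.26) and the knockdown negative control (0.93), and Ptprc on all 4 arrays (0.32 to 1.18). In knockdown cells against normal cells their lists were split. Of 9 endothelial genes read 3 were higher and 2 lower, and of 10 leukocyte genes 4 were higher and 3 lower. In overexpression cells 3 of 8 endothelial and 4 of 8 leukocyte genes were higher and 0 lower. In the overexpression negative control 3 of 8 and 4 of 8 were higher, with 0 and 1 lower. In the knockdown negative control 3 of 8 and 4 of 8 were higher, with 2 and 1 lower. Of all genes, 30.5%, 17.3%, 18.5% and 17.5% were past the threshold in these comparisons, in this order. The normal array was scanned on another day, so scan day and transduction cannot be told apart here. Msln and Wt1, which are known from mesothelium, were well above background on all 5 arrays, with levels of 4.74 to 6.0 for Msln and 2.28 to 3.62 for Wt1.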
